A study of Caenorhabditis elegans with 2 samples.

Results

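The regions described here are 399 promoter peaks of MED-1 in Caenorhabditis elegans embryos, taken from the 1000 peaks with the highest signal among the 30000 peaks of the authors' list for both replicates pooled. A peak was kept when it lay on a nuclear chromosome, when its summit was within 500 bp of the start of a protein-coding transcript, and when its summit was more than 200 bp from any tRNA, rRNA, snRNA or snoRNA gene. That list was deposited as peaks and background, so an entry in it need not be a bound site. The pooled signal chose the peaks, so its values are given as a description with no test. Of the 1000 strongest peaks, 20 were mitochondrial, 257 were nuclear and within 200 bp of a small RNA gene, and 723 were nuclear and away from such genes. The 399 promoter peaks were 55.2% of those 723 peaks, and the other 324 lay more than 500 bp from any protein-coding start. Among the 257 peaks at small RNA genes, 52 were also within 500 bp of a protein-coding start and were not kept.

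The series held chromatin immunoprecipitation with sequencing (ChIP-seq) of whole hermaphrodite embryos at the mid-embryonic stage, in 1 group of 2 biological replicates, with no second condition. The animals were of strain OP391, a line that carries the unc-119 allele ed3 together with wgIs391, a transgene with med-1 joined to TY1, EGFP and FLAG tags and a wild-type copy of unc-119. Chromatin was recovered with an antibody against GFP, which targets the tagged protein made from the transgene, in all cells of the embryo at once. No control library was analysed here, so signal that does not come from the tagged protein cannot be told apart. The number of reads per library is unknown, so no depth-based precision is given. The replicate 1 list held 2401 peaks, the replicate 2 list held 30000, and the authors' set of peaks reproducible between replicates held 460.

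MED-1 is a GATA-type zinc finger factor known for specifying the mesendoderm lineage of the early embryo, where it acts on genes such as end-1, end-3 and tbx-35. Its reported recognition sequence, AGTATAC, differs from the GATA sequence bound by most factors of the family. Promoters in C. elegans are compact, neighbouring genes often start back to back from a shared promoter, and many mRNAs receive a spliced leader, so the annotated transcript start can lie downstream of the place where transcription begins.

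The 8 strongest promoter peaks outside 1 chromosome whose sequence is not printed are shown first, because they hold the letters on which the sequence results below turn. Each sequence is 101 bases centred on the summit, from RefSeq's WBcel235 assembly (coordinates as in ce11), and is written in the direction of the nearest gene. Capitals mark a paired element, which was defined as TGCC or TGCG, then 4 or 6 bases of any kind, then TTGCAA or TTGCGA, on either strand.
idhg-1, chrIII:4568698-4568798, plus strand: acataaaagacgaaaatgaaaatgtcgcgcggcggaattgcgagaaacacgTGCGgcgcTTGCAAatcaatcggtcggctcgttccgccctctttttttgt
atx-2, chrIII:10461275-10461375, plus strand: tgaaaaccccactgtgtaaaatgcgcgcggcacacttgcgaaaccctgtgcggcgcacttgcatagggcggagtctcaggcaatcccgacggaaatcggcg
C16C10.4, chrIII:4171130-4171230, plus strand: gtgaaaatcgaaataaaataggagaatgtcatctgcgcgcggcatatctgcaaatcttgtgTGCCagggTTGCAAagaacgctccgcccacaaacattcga
ears-2, chrIV:390452-390552, minus strand: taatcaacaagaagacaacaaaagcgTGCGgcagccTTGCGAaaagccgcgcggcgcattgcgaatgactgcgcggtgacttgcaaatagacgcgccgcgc
nmad-1, chrIII:5555081-5555181, minus strand: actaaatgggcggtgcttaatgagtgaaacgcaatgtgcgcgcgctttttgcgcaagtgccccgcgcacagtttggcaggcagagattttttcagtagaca
C46F11.4, chrIII:3664388-3664488, minus strand: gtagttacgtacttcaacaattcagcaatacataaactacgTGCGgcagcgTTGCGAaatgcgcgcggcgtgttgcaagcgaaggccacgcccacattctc
B0495.9, chrII:7708731-7708831, minus strand: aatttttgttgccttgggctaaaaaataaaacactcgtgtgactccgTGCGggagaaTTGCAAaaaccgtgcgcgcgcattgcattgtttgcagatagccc
F39G3.3, chrV:4731540-4731640, plus strand: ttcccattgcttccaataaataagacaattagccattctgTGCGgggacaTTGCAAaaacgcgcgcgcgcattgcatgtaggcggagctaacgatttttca
Of these 8 windows, those at atx-2 and nmad-1 held no copy of the element within the bases shown. The letters and gaps of the element were read from the 26 strongest members outside that chromosome, these 8 among them, so its presence here is not a result. The next 3 windows are the strongest members with the element, outside the same chromosome, that were not used for reading it.
C26D10.3, chrII:8325308-8325408, plus strand: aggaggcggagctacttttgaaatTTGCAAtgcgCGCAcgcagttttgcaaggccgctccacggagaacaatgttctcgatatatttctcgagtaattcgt
scc-2, chrII:255328-255428, minus strand: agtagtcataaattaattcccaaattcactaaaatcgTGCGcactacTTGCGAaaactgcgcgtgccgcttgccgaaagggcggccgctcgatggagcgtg
mrpl-39, chrV:1821423-1821523, plus strand: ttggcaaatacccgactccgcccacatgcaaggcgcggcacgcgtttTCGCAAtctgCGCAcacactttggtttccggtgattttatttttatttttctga

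The strongest promoter peak was at idhg-1, which encodes a subunit of the mitochondrial NAD-dependent isocitrate dehydrogenase. Its signal was 521 in the pooled list, 243 in replicate 1 and 272 in replicate 2, and its summit lay 49 bp upstream of the start. The peak at atx-2, the ataxin-2 homologue, had a pooled signal of 415, with 217 in replicate 1 and 198 in replicate 2. The third, at K05C4.2, a homologue of jagunal, had 399 pooled, 182 in replicate 1 and 215 in replicate 2. These 3 peaks held ranks 2, 3 and 4 of all 30000 pooled peaks, and replicate 1 was the higher replicate at atx-2 only.

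Below them came C16C10.4, which encodes a putative histone deacetylase complex subunit of the SAP18 type, at 341 pooled, 169 in replicate 1 and 172 in replicate 2. The mitochondrial glutamyl-tRNA synthetase gene ears-2 had 303 pooled, 161 in replicate 1 and 141 in replicate 2. The peak at spe-48 had 303 pooled, 131 in replicate 1 and 172 in replicate 2. That at nmad-1, annotated as a DNA N6-methyl adenine demethylase, had 289 pooled, 120 in replicate 1 and 167 in replicate 2. All 7 peaks named so far ranked within the 13 strongest of the pooled list, and 6 of them lay at a promoter shared with a gene that starts in the opposite direction.

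The others among the 25 strongest members ran down to a signal of 158. Several of their genes act on RNA or on chromatin. C46F11.4 encodes an RNA helicase (262), F39G3.3 a histone H3 lysine methyltransferase (253), krr-1 a component of the small-subunit processome that makes ribosomes (217), swsn-3 an HMG-box protein of a chromatin remodelling complex (194) and plrg-1 a pleiotropic regulator (162). The release factor gene erfa-3, which ends translation, had 166. By product name alone, mitochondrial proteins are encoded by mtss-1, a single-stranded DNA-binding protein (208), and by haf-6, a channel subunit (175). Another such name is that of Y22D7AL.10, a small chaperonin that shares its promoter with hsp-60 (158). For 9 of the 25 the opposite gene also started within 500 bp of the summit, and besides rnf-121, uncp-18, gei-6, ndua-2, ima-1 and fbxc-44, described below, these were Y51F10.11 opposite spe-48, hach-1, an enzyme gene of valine breakdown, opposite nmad-1, and algn-13, a glycosylation gene, opposite R10D12.13. The rest of the 25 were B0495.9 (261), ccdc-47 (242), K05C4.7 (236), dnj-29 (230), R10D12.13 (215), R148.3 (199), the protease gene dvc-1 (185), the centriole assembly gene sas-5 (171) and C16A11.2 (167).

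Most members were much weaker than these. The pooled signal ran from 29.2 through a median of 37.1 to 521, with 46 members at 100 or more and 126 at 50 or more. Of the 399, 174 were in the authors' reproducible set and 225 were not. The score in the authors' q-value column was at least 2 in 79 members and below 0 in 203, and a value below 0 cannot be read as a −log10 q-value. The peak width was 324 bp in 383 members, and the 16 narrower peaks, down to 85 bp, all ranked 34 or higher in strength.

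The rule's threshold fell in a flat part of the list. Just inside it were spt-16 with 29.19, ndub-3 with 29.17 and Y41C4A.9 with 29.17, and just outside it were lem-2 with 29.17, pqn-15 with 29.12 and fcd-2 with 29.01.

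The members were then looked up in each replicate's own list, by any overlap of at least 1 bp. A replicate 1 peak overlapped 301 members (75.4%, exact Clopper-Pearson 95% interval 70.9 to 79.6%), where 7.98% of all 30000 pooled peaks had one. A replicate 2 peak overlapped 392 members (98.2%), where 63.1% of all pooled peaks had one. Both replicates had a peak at 294 members (73.7%, 69.1 to 77.9%), where 5.03% of all pooled peaks and 72.9% of the 1000 strongest did. No member lacked a peak in both lists. Since the pooled list contains the reads of both replicates, these shares describe the selection and are not independent of it, and such intervals, here and below, cover counting error only.

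Presence in both replicates followed pooled rank, which the ranking itself favours. Over the 294 members with both values, summed replicate signal over pooled signal had a median of 0.994 (quartiles 0.957 and 1.03). All 43 members of ranks 1 to 100 and all 57 of ranks 101 to 250 were among the 1000 strongest peaks of each replicate. At ranks 251 to 500 this held for 56 of 94, and at ranks 501 to 1000 for 14 of 205 (6.83%), although 114 of those 205 had a peak of some strength in both lists. The strongest members without a replicate 1 peak were at nhr-47, a nuclear hormone receptor gene (pooled 54.5, replicate 2 35.1), at nuo-2, a complex I subunit gene (pooled 51.1, replicate 2 31.5), and at Y45G5AM.9 (pooled 48.6, replicate 2 31.9). Of the 7 members without a replicate 2 peak the strongest was at set-4, a histone methyltransferase gene, with rank 472.

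Signal ran from 13.2 through a median of 20.6 to 243 over the 301 members with a replicate 1 peak, and from 7.16 through 21.6 to 272 over the 392 with a replicate 2 peak. Over the 294 members with both values, the ratio of replicate 1 to replicate 2 had a median of 0.940 (quartiles 0.758 and 1.19), and 273 of 294 members were within 2-fold. Replicate 1 was higher at 125 members and replicate 2 at 169. Across these members, which share their libraries and were chosen on the pooled signal, Spearman's rho was 0.721 and Pearson's r was 0.935. The lowest ratio was at srh-16 (17.1 in replicate 1 and 46.1 in replicate 2) and the highest at K10B2.4 (27.5 in replicate 1 and 8.17 in replicate 2). The median distance between a replicate's summit and the pooled summit was 17 bp in replicate 1 and 10 bp in replicate 2.

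**Figure D1:**
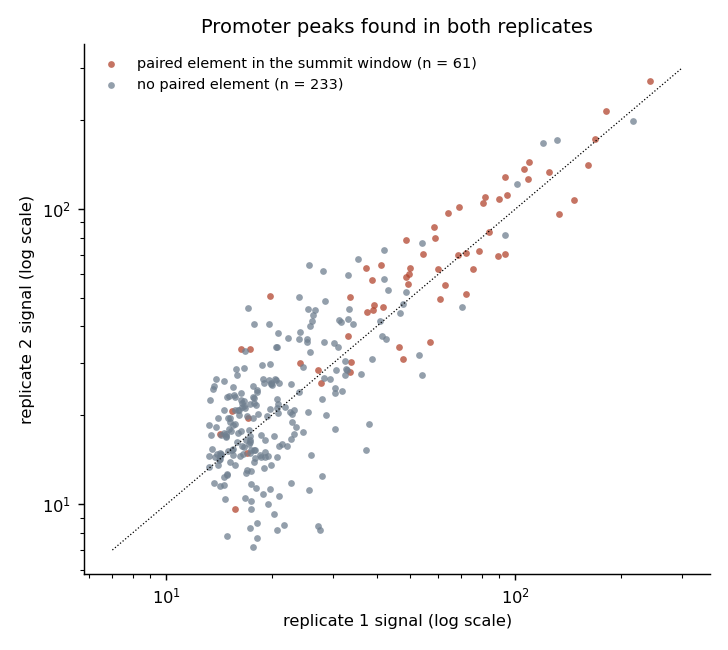
Signal of the promoter peaks in replicate 1 (horizontal) and replicate 2 (vertical), both in the authors' signal units on log scales; each point is 1 of the 294 members with a peak in both lists, red where the summit window holds the paired element, and the dotted line marks equal signal. Points above a signal of about 100 in both replicates lie close to the line, and most of them are red, including members from which the element was read, while members without the element fill the lower left.

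A comparison that does not use the pooled list gave the replication of promoter peaks against that of other peaks. When the same rule was applied to the 1000 strongest peaks of replicate 1, it kept 383 promoter peaks, and 171 of them (44.6%, 39.6 to 49.8%) overlapped one of the 1000 strongest peaks of replicate 2. Of the 376 nuclear peaks of replicate 1 away from small RNA genes and from starts, 55 did (14.6%, 11.2 to 18.6%). The share over all 1000 was 43%. In the other direction, 170 of 361 promoter peaks of replicate 2 (47.1%, 41.8 to 52.4%) and 56 of 384 other peaks (14.6%, 11.2 to 18.5%) overlapped one of the 1000 strongest of replicate 1, with 43.2% over all 1000. Promoter peaks thus recurred about as often as the average strong peak, and their interval did not overlap that of peaks away from starts in either direction. The groups were not matched for rank. In the pooled list, 93.5% of nuclear peaks away from small RNA genes were at promoters at ranks 1 to 100, and 44.3% at ranks 751 to 1000. The part of rank in the difference was not tested.

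The summits of the members lay mostly upstream of the start. They were upstream at 336 of 399 peaks (84.2%, 80.3 to 87.6%). Among the 7831 promoter peaks that met the same distance rules at rank 1001 or lower the share was 53.4% (52.3 to 54.5%). Of those 7831 peaks, 6550 were at ranks 5001 to 30000 of a list that includes background. Here and below, this comparison group is therefore mostly far weaker than the members. At ranks 1001 to 2000 the share upstream was 64.8%. Counting positions upstream of the start as negative, the median position was −145 bp (quartiles −247.5 and −44.5 bp), and the median distance on either side was 167 bp. In the lower-ranked promoter peaks the median position was −24 bp (quartiles −226 and 214 bp) and the median distance was 220 bp. The bin from 200 to 101 bp upstream held 28.3% of members and 12.1% of lower-ranked promoter peaks. On the downstream side the bin from 101 to 200 bp held 2.51% of members and 9.77% of lower-ranked promoter peaks.

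In the annotation, 302 member summits (75.7%) lay outside protein-coding genes, 43 (10.8%) in introns, 29 (7.27%) in coding exons, 17 in 5′ UTRs and 8 in 3′ UTRs. For lower-ranked promoter peaks the shares were 37.3% outside genes, 31.7% in introns and 22.4% in coding exons. The strongest member with its summit downstream of the start was at uba-5, an activating enzyme gene for a ubiquitin-like protein, with a pooled signal of 137 and a summit 279 bp into the gene, in an intron. It was followed by rde-10, an RNA interference gene (83.1, 5 bp downstream), and mdt-26, a Mediator subunit gene (69.8, 40 bp downstream).

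**Figure D2:**
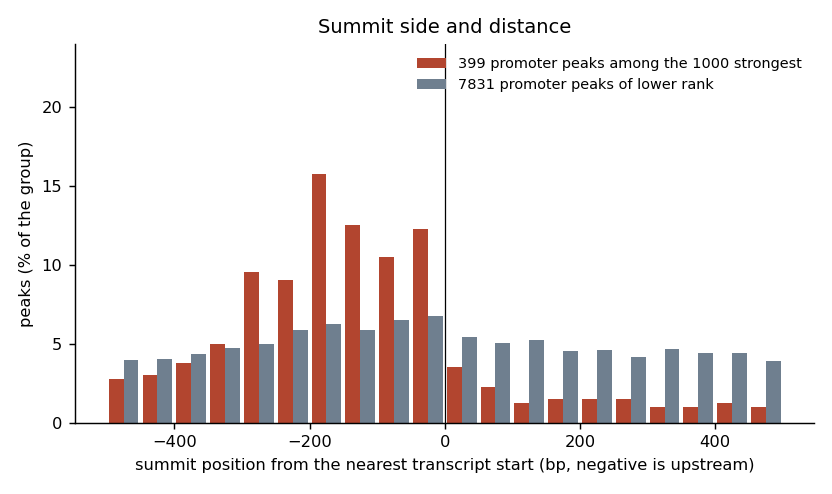
Position of the summit relative to the nearest protein-coding transcript start in bins of 50 bp (horizontal axis, negative values upstream), as a percentage of 399 members (red) and of 7831 lower-ranked promoter peaks (grey). Members are concentrated in the 300 bp before the start and drop at the start, while lower-ranked peaks spread almost evenly over both sides.

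A promoter was called divergent when another protein-coding gene started in the opposite direction within 1000 bp upstream of the nearest start. This held for 158 members (39.6%, 34.8 to 44.6%), for 13.8% of lower-ranked promoter peaks (13.0 to 14.6%) and for 18.2% of all 19973 nuclear protein-coding genes (background share of genes with such a neighbour). The summit was between both starts at 140 of the 158 divergent members (88.6%), whereas in divergent lower-ranked peaks it was there in 46.1%. The start of the opposite gene was itself within 500 bp of the summit in 114 members. The starts were a median of 426.5 bp apart, from 60 bp at Y57E12AL.1 and Y57E12AL.6 to 994 bp at B0495.9 and sre-1.

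Within the shared interval the summits were spread widely, and fewer lay next to the starts than an even spread would give. For the 140 summits between the starts, the median distance to the nearer start was 0.299 of the interval, where an even spread would give 0.25. The central 20% of the interval held 28 of the 140 summits. The outer 40%, next to either start, held 42 of them, a smaller share than 40%. Among the strong divergent members, C16C10.4 and rnf-121, a ubiquitin ligase gene, started 383 bp apart with the summit 156 bp from C16C10.4. At krr-1 and gei-6 the starts were 342 bp apart and the summit was 159 bp from krr-1. At idhg-1 and mlcd-1, a malonyl-CoA decarboxylase gene, the starts were 667 bp apart and the summit was 49 bp from idhg-1. At ears-2 and uncp-18 only 92 bp separated the starts, with the summit 34 bp from ears-2.

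Divergent members had a median pooled signal of 41.0 (quartiles 32.8 and 75.4) and single members, at promoters with no such neighbour, one of 35.3 (31.0 and 48.8), with wide overlap. The summit was upstream in 88.6% of the 158 divergent members (82.6 to 93.1%) and in 81.3% of the 241 single members (75.8 to 86.0%), both above the 53.4% of lower-ranked promoter peaks. The median distance to the start was 130.5 bp in divergent members and 215 bp in single ones, a difference that the definition favours, since a summit between a pair of starts is measured to the nearer.

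Side and divergence followed rank. At ranks 1 to 100, 67.4% of 43 promoter peaks were divergent (51.5 to 80.9%) and 97.7% had their summit upstream, and at ranks 751 to 1000 the shares of 102 peaks were 28.4% (19.9 to 38.2%) and 73.5%. At ranks 1001 to 2000, outside the members, they were 17.6% and 64.8% of 364 peaks. The share of nuclear peaks away from small RNA genes that were at promoters at all was 93.5% at ranks 1 to 100 and 44.3% at ranks 751 to 1000, against 26.4% at ranks 5001 to 30000.

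**Figure D3:**
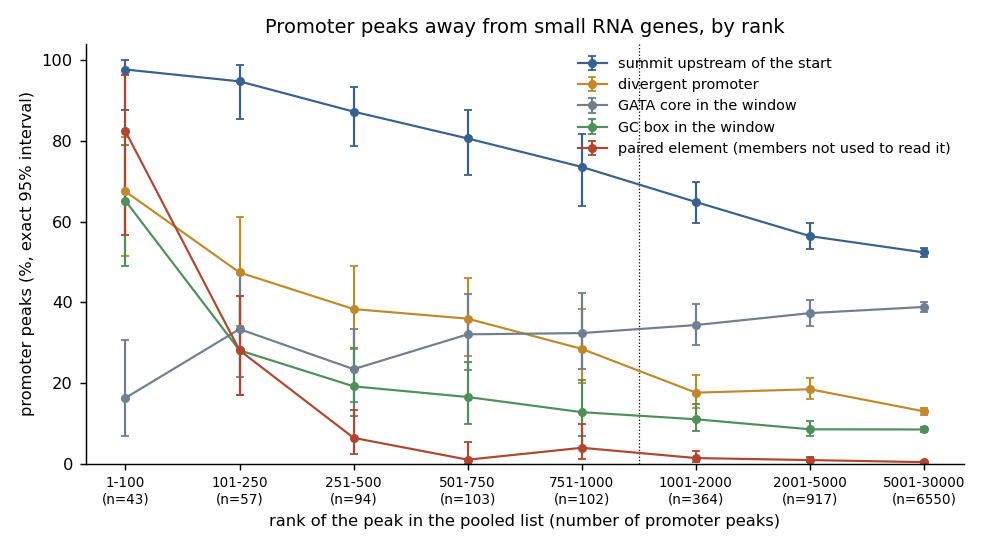
Percentage of promoter peaks (vertical axis, points with exact 95% intervals) in each band of pooled rank (horizontal axis, with the number of promoter peaks) that have their summit upstream of the start, are divergent, or hold a GATA core, a GC box or the paired element within 100 bp of the summit; the dotted line separates the members, on the left, from lower-ranked peaks. Upstream summits, divergence, the GC box and the paired element are most common at ranks 1 to 100, where the GATA core is least common. The paired element is shown without the 26 members it was read from, all at rank 76 or stronger, and is at 82.4% of the 17 others at ranks 1 to 100.

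The members were spread over all chromosomes but not evenly over genes. Chromosome III held 95 members (23.8%), whereas it holds 13.2% of protein-coding genes and 14.9% of lower-ranked promoter peaks. Chromosome V held 62 members (15.5%) with 25% of genes, and the X chromosome held 39 (9.77%) with 13.7% of genes. Chromosomes I, II and IV held 77, 75 and 51 members.

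In all, 518 genes, 2.59% of 19973, had a start within 500 bp of a member summit, and 117 members had more than 1 such gene. Of the 518, 72.6% carried a gene name rather than only a sequence name, against 54.6% of all genes. The genes were described with 32 lists by function or tissue, which together held 155 of the 518. The lists were chosen with earlier results of these data known and are described by counts only. No enrichment is claimed for any of them.

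The shares are set beside the 2.59% of all genes. They count every member, also the 98 of 399 without a replicate 1 peak. Genes at such members include nuo-2, mdh-2, suca-1, sld-2, hsp-6 and tba-2. The signal given for a list gene is that of the peak, and another gene can start nearer to its summit. Examples are ima-1 (297 bp, with dvc-1 at 47 bp), ran-3 (306 bp, with C26D10.3 at 28 bp) and rpn-7 (385 bp, with F49C12.9 at 31 bp). The same holds for npp-14, eif-3.D and eef-1A.1. At other peaks, such as those of npp-8 and swsn-3, the list gene was the nearest. Lists of mitochondrial energy metabolism and of cytosolic translation were, with that of nuclear transport below, the 5 with the highest shares. Of 68 nuclear genes of the respiratory chain, 14 had a member peak (20.6%, 11.7 to 32.1%), the strongest at ndua-2, a complex I subunit gene that starts opposite dnj-29 (230), then at the cytochrome c1 gene cyc-1 (66.8), at ndua-1 (58.4) and at nuo-2 (51.1). Of 27 genes of the TCA cycle and the enzymes that feed it, 5 had one (18.5%, 6.30 to 38.1%), which were idhg-1, dlst-1 (105), pdhb-1 (37.8), the malate dehydrogenase gene mdh-2 (34.7) and suca-1 (30.5). Of 81 cytosolic ribosomal protein genes, 14 had one (17.3%, 9.78 to 27.3%), with rps-28 at 98.9 pooled (48.5 in replicate 1 and 52.3 in replicate 2), rpl-3 at 89.6, rpl-35 at 62.3 and rpl-15 at 62.2. The summits at these 4 genes were far from their starts, 431 bp at rps-28, 289 bp at rpl-3, 460 bp at rpl-35 and 379 bp at rpl-15.

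Translation factors had 7 of 44 genes with a member peak (15.9%, 6.64 to 30.1%), led by eif-3.C (112) and eif-3.D (67.7), subunits of an initiation complex, then eif-1.A (45.6) and the elongation factor gene eef-1A.1 (39.1). Mitochondrial ribosomal proteins had 5 of 70 (7.14%), led by mrpl-39 (113) and mrps-34 (91.5), then mrpl-28 (33.0) and mrpl-45 (32.1). Of 32 aminoacyl-tRNA synthetase genes 1 had a member peak, ears-2.

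Genes of nuclear functions had shares from 6.94% to 20.4%. Nuclear pore and transport genes had 10 of 49 (20.4%, 10.2 to 34.3%), namely the importin gene ima-1 (185), the exchange factor gene ran-3 (124), the nucleoporin genes npp-8 (108) and npp-14 (77.2), and 6 others below 54. RNA polymerase and general transcription genes had 9 of 83 (10.8%), with mdt-9 (141), cdk-9 (126), a kinase of transcription elongation, rpac-19 (93.1) and mdt-26 (69.8). Splicing and RNA processing had 10 of 112 (8.93%), with cpf-2 (145), rnp-6 (83.1), mog-5 (81.3) and rsp-2 (48.5). DNA replication and repair had 6 of 80 (7.5%), led by rfc-4 (39.1) and mcm-4 (38.6), then brc-1 (32.0) and sld-2 (30.7). The product name of sld-2 is a ribosome biogenesis protein.

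Chromatin regulators had 10 of 144 (6.94%), with swsn-3 (194), mrg-1 (97.8), and the histone methyltransferase genes set-25 (62.6) and set-16 (50.6). Cell cycle and mitosis genes had 10 of 141 (7.09%), with sas-5 (171), cdk-9, which stands in both lists, the cohesin loader gene scc-2 (120) and the kinetochore gene knl-3 (62.9). Vesicle traffic had 17 of 194 (8.76%, 5.19 to 13.7%), with arf-6 (124), cogc-2 (86.9), sec-3 (76.6) and vps-39 (55.1). Chaperones had 6 of 65 (9.23%), led by dnj-29 (230), dnj-9 (75), dnj-19 (54.5) and the mitochondrial hsp-6 (38.5).

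Smaller counts were found for the proteasome, with 3 of 33 (rpn-7 at 128, rpt-2 at 32.7 and pbs-4 at 29.9), for the proton-pumping V-ATPase, with 2 of 21 (vha-9 at 77.4 and vha-15 at 38.8), and for tubulins, with 2 of 16 (tba-7 at 43.2 and tba-2 at 36.5). Ubiquitin and SUMO enzymes had 6 of 149 (4.03%), with rnf-121, uba-5, ubc-12 (39.7) and wwp-1 (37.5). Of 82 histone genes, his-67 and his-68 had a member peak, which was 1 peak (36.1) shared by both.

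Tissue lists were small, and their counts cannot be told apart from the 2.59% of all genes. The intestine list had 1 of 29 (3.45%; erm-1, 38.2), body wall muscle 1 of 36 (2.78%; mlc-3, 33.3), epidermis 2 of 57 (3.51%; dpy-17, 32.1, and dpy-23, 30.3) and germline 2 of 51 (3.92%; spn-4, 94.2, and ekl-1, 63.8). Of these, dpy-23 is annotated as a subunit of the AP-2 complex, and the peaks at dpy-23 and mlc-3 had no replicate 1 peak. Neurons had 0 of 43, which by a limit of 3 counts allows a share of up to 6.98%. Pharynx and MS lineage had 0 of 30 (up to 10%) and the ceh homeobox genes 0 of 63 (up to 4.76%). The exact upper bounds for these lists were 8.22%, 11.6% and 5.69%. Among large gene families, chemoreceptor genes had 3 of 1354 (0.222%, 0.0457 to 0.646%), namely sri-5 (71.5), srh-16 (63.5) and str-12 (29.7). F-box genes had 4 of 322 (1.24%, 0.339 to 3.15%), with fbxc-44, which starts opposite C16A11.2 (167), fbxb-85 (64.0), fbxc-19 (36.0) and fbxa-153, at the same peak as str-12. Nuclear hormone receptors had 2 of 269 (nhr-47 at 54.5 and nhr-58 at 29.8), collagens 1 of 156 (col-81, 32.4) and C-type lectins 1 of 240 (clec-138, 36.7). The interval lay below 2.59% for chemoreceptors and C-type lectins, and included it for the other 3 families.

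**Figure D4:**
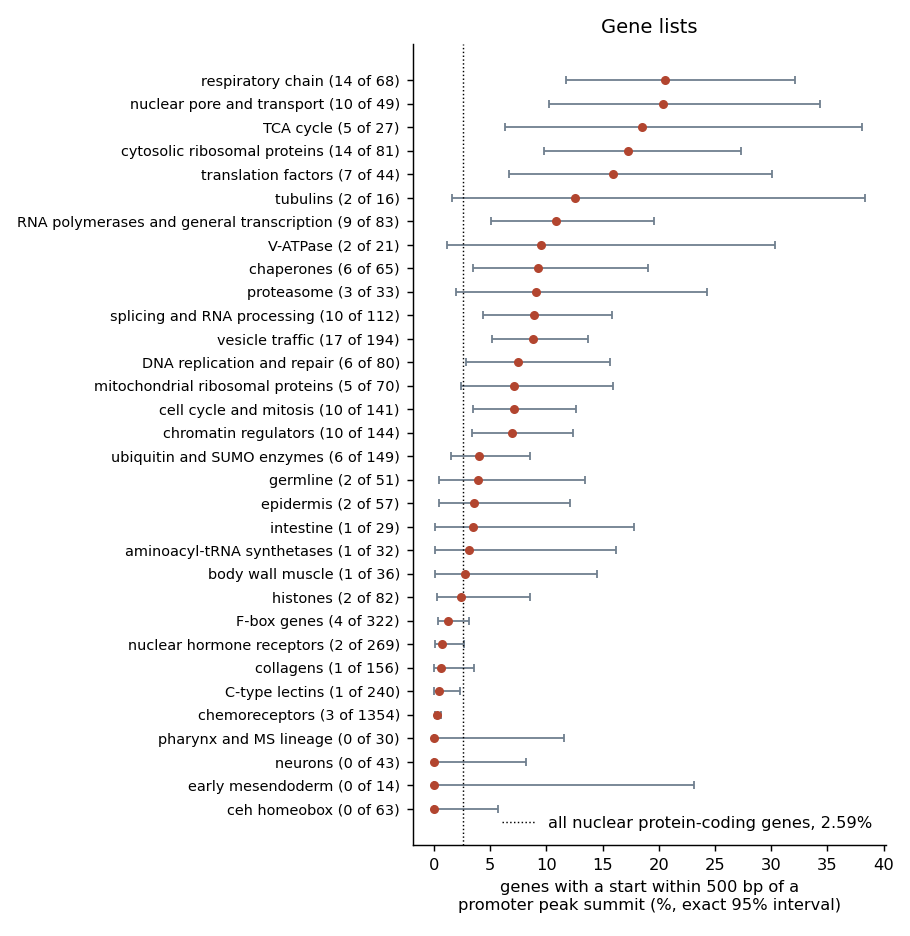
Share of the genes of each of the 32 lists that have a start within 500 bp of a member summit (horizontal axis, percentage with exact 95% interval; counts beside the list names), with the share over all nuclear protein-coding genes, 2.59%, as a dotted line. Lists of respiratory chain, nuclear transport, TCA cycle, ribosome and translation genes, among others, lie above the line with their whole interval, and chemoreceptors and C-type lectins lie below it.

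Genes of the early mesendoderm, where MED-1 is known to act, had no member peak. This was so for 0 of 14 genes, which allows a share of up to 21.4%. Lower in the pooled list, 7 of the 14 were the nearest gene of a promoter peak. In the other lists with no member peak this held for 19 of 43 neuron genes, 27 of 63 ceh homeobox genes and 9 of 30 pharynx and MS lineage genes. The share over all genes was not counted, so no excess at mesendoderm genes is claimed. The strongest of the 7 was at tbx-35, a T-box gene of the MS lineage, at rank 1095 with a signal of 28.4 and 133 bp from the start. It was followed by med-1 itself (rank 1897, 24.9), lit-1 (rank 1926, 24.8) and sys-1 (rank 2590, 23.2) and, far below, by elt-2 (rank 21722), pal-1 (rank 24062) and pop-1 (rank 25136). The transgene of this strain also carries med-1, and reads from it cannot be told apart here from those of the native gene. No promoter peak was listed for end-1, end-3, elt-7, med-2, ceh-51, skn-1 or wrm-1. In chromatin of whole embryos, binding in few cells and weak binding in many cells cannot be told apart.

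Sequence was examined in windows of 201 bp, 100 bp to each side of the summit, on both strands. Comparison windows of the same length were taken 400 bp to each side of the member summits (flanks), at the lower-ranked promoter summits, and centred 100 bp upstream of the outermost start of each of 19973 genes. The MED core AGTATAC was in 2 member windows (0.501%, 0.0608 to 1.80%), in 0.752% of flanks, in 1.11% of lower-ranked windows and in 1.17% of gene windows. These 2 members were fust-1, an RNA-binding protein gene (rank 198, signal 70.7, summit 366 bp upstream), and the tubulin gene tba-7 (rank 397, signal 43.2, summit 301 bp downstream in an intron).

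The GATA core GATAA was less common at member summits than around them. It was in 28.6% of member windows (24.2 to 33.3%), in 44.6% of flanks, in 38.4% of lower-ranked windows and in 45.7% of gene windows. The longer TGATAA, which contains it, was in 8.52% of member windows, 19.2% of flanks, 16.8% of lower-ranked windows and 22.8% of gene windows. The other strong peaks were closer, with GATAA in 33.3% of the 324 away from starts and in 30.7% of the 257 at small RNA genes. At ranks 1 to 100 GATAA was in 16.3% of the 43 windows.

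Sequences rich in CG were more common at member summits than in flanks, lower-ranked windows and gene windows. The GC box, CCACCC or CCGCCC, as bound by Sp1-type zinc finger factors, was in 92 member windows (23.1%, 19.0 to 27.5%), in 5.14% of flanks, 8.58% of lower-ranked windows and 9.42% of gene windows. The other strong peaks held it about as often, with 19.1% of the 324 away from starts and 19.1% of the 257 at small RNA genes, both within the members' interval. An E2F-type sequence (TTCCCGC or TTCGCGC, and also TTGCCGC or TTGGCGC) was in 17.8% (14.2 to 21.9%), against 5.26% of flanks, 7.69% of lower-ranked windows and 6.26% of gene windows, and was in 10.8% of strong peaks away from starts and 10.1% of those at small RNA genes. The 6-mer GCGCAC was in 102 member windows (25.6%, 21.4 to 30.1%), against 3.51% of flanks, 4.61% of lower-ranked windows and 4.08% of gene windows, and was in 5.56% of strong peaks away from starts and 11.7% of those at small RNA genes. These strong peaks were not matched to the members for rank. The GCGCAC share of members was 44.2% at ranks 1 to 100 and 12.7% at ranks 751 to 1000. GC content was 40.9% ± 6.75 (SD over 399 windows) at member summits, 36.9% ± 6.90 in flanks, 36.3% ± 6.27 in lower-ranked windows and 33.6% ± 6.42 in gene windows. CpG dinucleotides numbered 11.3 per member window, 7.94 per flank and 5.94 per gene window, and their observed over expected ratio was 1.34 in members, 1.16 in flanks and 1.05 in gene windows.

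Of the other sequences searched, the TATA box TATAAA was in 16.5% of member windows (13.0 to 20.6%), 19.9% of flanks and 30.5% of gene windows, and the splice acceptor TTTTCAG was in 18.5% (14.9 to 22.7%), 28.6% of flanks and 22.2% of gene windows. The E-box CACGTG was in 2.76% of member windows, 3.88% of flanks and 4.22% of gene windows, and CCAAT in 25.6%, 31.1% and 32.3%. The forkhead sequence TATTTAC or TGTTTAC was in 5.51% of member windows, 7.14% of flanks and 8.30% of gene windows, a run of 7 T in 37.1%, 35.1% and 43.4%, and the CRE sequence TGACGTC in 3.01%, 2.51% and 1.65%. The GA repeat GAGAGAG was in 9.02% of member windows (6.4 to 12.3%), 3.26% of flanks and 5.16% of gene windows. It was as common or more so in the other strong peaks, with 13.3% of those away from starts and 10.1% of those at small RNA genes. These matches describe letters and not bound sites.

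To check the CG-rich letters on members not used to choose them, the 20 6-mers with the greatest excess at summits over flanks were taken from 200 members, every other one by rank, and counted in the other 199. All 20 contained CG, and all 20 were more common at summits than in flanks in the other 199 members, by 1.71 to 40 times with a median of 7.15. The first of them, GCGCAC, was in 24.1% of the other summits and 4.02% of their flanks. The 20 overlap one another, so they are not 20 separate observations.

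**Figure D5:**
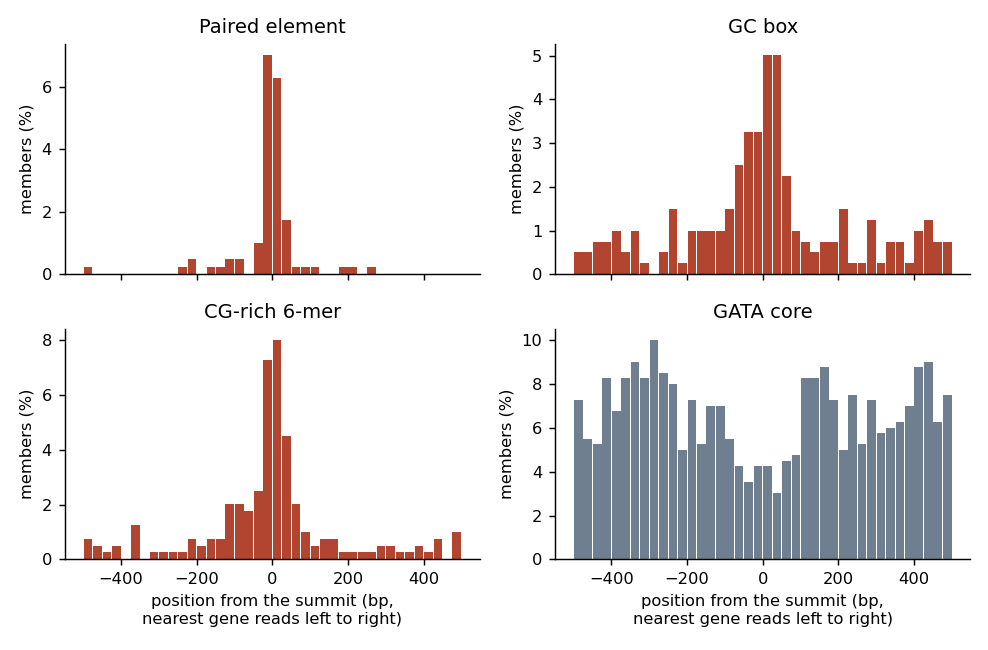
Percentage of the 399 members (vertical axes) with a match in each bin of 25 bp around the summit (horizontal axes, in the direction of the nearest gene) for the paired element, the GC box, the CG-rich 6-mer named in the text and the GATA core. The members used to read the paired element are included. The 3 red panels rise to a narrow maximum within 50 bp of the summit, while the GATA core is least common there.

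The paired element was found in 21 of the 26 members from which it was read. Counts for the other 373 members are therefore the ones of interest. It was in 41 of these (11.0%, 8.0 to 14.6%), in 1 of their 746 flanks (0.134%), in 0.472% of lower-ranked windows and in 0.531% of gene windows. Other strong peaks held it rarely, with 4 of 324 among those away from starts (1.23%) and 0 of 257 among those at small RNA genes, which allows a share of up to 1.17%. Only 3 of the 324 were at ranks 1 to 100, and 1 of these held it. At ranks 101 to 250 it was in 16 of 57 members and 0 of 16 peaks away from starts, and at ranks 251 to 500 in 6 of 94 and 1 of 65. At ranks 501 to 750 the counts were 1 of 103 and 0 of 112, and at ranks 751 to 1000 they were 4 of 102 and 2 of 128. On chromosome I, whose sequence was not read for this, 8 of the 9 members at rank 76 or stronger held the element (88.9%, 51.8 to 99.7%), among them K05C4.2 and K05C4.7. Among members not used for reading, it was in 14 of 17 at ranks 1 to 100 (82.4%), and it was in 28.1% of 57 at ranks 101 to 250 and in 6.38% of 94 at ranks 251 to 500.

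The element sat at the summit. Of 46 copies in the other members, 32 were centred within 25 bp of the summit and 42 within 50 bp, distances that make up 25.4% and 50.2% of the window. Over all 62 members with a copy, those used for reading included, 56 held 1 copy and 6 held 2. Of the 68 copies, 51 had the gap of 6 bases and 17 the gap of 4. Their median position was −151.5 bp from the start, which is upstream. At single promoters, 26 copies were in the direction of the gene and 4 were opposite, and over all promoters the counts were 43 and 25.

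The gap was examined from 0 to 15 bases with the same letters in the other 373 members. A gap of 6 was in 32 members and a gap of 4 in 13, which are the gaps that had been read. Gaps of 8 and 10, which had not been read, were in 11 and 8 members. A gap of 5 was in 6 members, a gap of 12 in 5, and each remaining length in at most 4. In gene windows the share for a single gap ran from 0.0651% at a gap of 0 to 0.365% at a gap of 6.

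The longer part of the element, TTGCAA or TTGCGA, also recurred at a fixed spacing. In the other members, 60 pairs of it stood 6 to 100 bp apart on the same strand, and 21 of these were exactly 22 bp apart. In gene windows 48 of 449 pairs were. A pair 21 to 23 bp apart was in 18 of the 373 other members (4.83%, 2.88 to 7.52%), in 0.115% of lower-ranked windows and in 0.215% of gene windows. No members shared an identical window, but related copies with a shifted or slightly different window were not searched for.

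Among the other 373 members, the 41 with the element had a median pooled signal of 83.2 (29.2 to 399), whereas the 332 without it had one of 35 (29.2 to 303), with complete overlap at the low end. A GC box was in 51.2% of the 41 (35.1 to 67.1%) and in 16.9% of the 332 (13.0 to 21.3%). Divergent promoters made up 48.8% of the 41 (32.9 to 64.9%) and 36.1% of the 332 (31.0 to 41.6%), intervals that overlap. The strongest members without a copy were atx-2, spe-48 and nmad-1, and the weakest with one were spt-16 and Y41C4A.9, at ranks 998 and 1000.

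Read from the genome rather than from the peaks, the element marked a share of gene starts near members but was not confined to them. Of 106 genes with a copy in the window upstream of the outermost start, 56 had a start within 500 bp of a member summit (52.8%, 42.9 to 62.6%), whereas 2.59% of all genes did. Without the genes at the 26 members that were read, it was 35 of 85 (41.2%, 30.6 to 52.4%). With a copy and a pair of the longer part 21 to 23 bp apart, it was 12 of 19 genes (63.2%, 38.4 to 83.7%), again without those genes. The nuclear genome held 1990 matches in all, of which 1452 lay more than 500 bp from any protein-coding start. Of the 538 matches within 500 bp of a start, 68 (12.6%) were within 100 bp of a member summit. Copies in the members from which the element was read are included, and the other members held 46 copies.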

How the data were processed

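The samples were 2 biological replicates of MED-1 ChIP-seq in 1 group. Per the file headers and labels the deposited lists hold peaks and background on ce11, 1 list per replicate and 1 for both pooled, and a reproducible set by irreproducible discovery rate (IDR). For the aligner, the peak caller and the control, names and versions were not given in the sources used here. Peak signal and the score in the q-value column are the authors' own values per peak, as deposited, and were used only to rank and describe peaks. Lists on the other build were not used.

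Starts and small RNA genes came from Ensembl release 115 (WBcel235, the same coordinates as ce11), product names and sequence from RefSeq. The nearest of 29314 transcript starts was taken from the summit. Overlaps needed 1 bp. Shares carry exact Clopper-Pearson 95% intervals, which treat peaks as independent, and a limit of 3 counts for a count of 0. They cover counting error only. Read depth is unknown. Code was tested on simulated data. Python 3.11.15, pandas 2.3.3, numpy 2.4.6 and scipy 1.17.1 were used.

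The members, lists and motifs were chosen with earlier results of these data known. Several list patterns were corrected after the members were seen. The paired element was read by eye from 26 windows, with several other letter patterns tried, and its alternatives were added after seeing the data. Genes are named if nearest to the 25 strongest members (or sharing their promoter), among the 4 strongest of a list, at the rank threshold, without a replicate 1 peak (3 strongest), with the MED core, or in a tissue or mesendoderm list. Genes named for side, spacing, replicate gaps or lack of the element were chosen after their values were seen.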

Additional observations from a re-analysis of the deposited data

How the results depend on the processing

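Of 105 results recomputed under another setting, 67 stayed within the interval of the reported value (counts within 1.5 times) and 38 moved. No paired analysis was possible because there is 1 group. Taking the strongest 1000 peaks of a single replicate gave 361 to 383 promoter peaks, 37.1 to 39.1% divergent, 80.2 to 82.8% upstream and a median distance of 172 to 173 bp. The lower upstream share, 80.2%, was that of replicate 1 alone. With the 500 strongest pooled peaks there were 194 promoter peaks, 47.4% divergent, 91.8% upstream, 92.8% in both replicates, 32.0% with the GC box, 35.6% with GCGCAC and 21.4% of unread members with the paired element. With the 2000 strongest the values were 763, 29.1%, 75%, 52.4%, 17.3%, 17.3% and 6.24%, and the E2F type was at 14.2%. The reproducible set held 174 promoter peaks, 47.7% divergent, 92.5% upstream, 94.3% in both replicates, 33.9% with the GC box, 36.8% with GCGCAC and 23.6% with the paired element. A limit of 250 bp from the start gave 49.3% divergent, a median of 128 bp and 0 windows with the MED core, and a limit of 1000 bp gave 33.7% and 208.5 bp. Divergence within 500 bp was 22.6%. Counting only the 1000 strongest peaks of each replicate put 42.6% in both. Windows of 50 bp to each side held GATAA in 13.3%, the GC box in 15.5%, the E2F type in 8.77% and GCGCAC in 20.3%, and windows of 200 bp held the MED core in 2.26%, GATAA in 58.9%, the GC box in 27.6% and the E2F type in 22.1%, as fewer or more bases were searched. A small RNA distance of 500 bp, 1 start per gene and an overlap of 50% moved no result. Most members beyond rank 500 were outside the 1000 strongest peaks of at least 1 replicate. The read depth is unknown, and its part in this was not tested.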
